A study of Mus musculus with 65 samples.

Results

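The contractile actin and tropomyosin genes are a set of 10 genes, Acta2, Actc1, Actg2, Tpm1, Tpm2, Tagln, Cnn1, Cnn2, Myl9 and Tgfb1i1, chosen by name from the rows of a gene count table of 31057 features. Each symbol matched 1 protein-coding feature by its Ensembl identifier (GENCODE M21, mouse build mm10). The libraries came from primary neural stem cells of the adult subventricular zone of iOSKM mice, whose cells carry a doxycycline-inducible cassette for the reprogramming factors Oct4, Sox2, Klf4 and Myc. All 65 libraries, in 15 groups, carry this genotype, untreated ones included. Old animals (25 months, 4 animals, 2 of them female) gave 10 groups and young animals (3 to 4 months, 5 animals, 3 of them female) gave 5 groups, so each animal contributed 1 library to every group of its age. Cells in NSC medium were kept on poly-D-lysine and laminin in Neurobasal-A with B27, EGF and bFGF. Cells called differentiated here were switched, 18 h after plating, to medium without EGF and bFGF. Doxycycline was given at 2 µg per ml.

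Old cells were sampled with doxycycline in NSC medium at 6, 18 and 48 h and in differentiation at 6, 18 and 48 h, and without it in NSC medium at 18 h and in differentiation at 6, 18 and 48 h. Young cells were sampled with doxycycline in NSC medium at 18 h, and without it in NSC medium at 18 h and in differentiation at 6, 18 and 48 h. The labels do not say from which event these hours are counted, and the groups hold no untreated NSC library at 6 or 48 h, so the early and late NSC times were observed in old, doxycycline-treated cells only. Untreated cells at 6 h of differentiation are compared with NSC medium at 18 h, so medium and labelled time change together there. Their parts cannot be told apart.

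Alpha smooth muscle actin (Acta2), cardiac alpha actin (Actc1) and gamma smooth muscle actin (Actg2) are the muscle forms of actin, the filament that myosin pulls on. Tropomyosins lie along that filament, calponins and transgelin bind it, and the regulatory myosin light chain switches the motor on. Many of these genes carry CArG boxes in their promoters, which bind serum response factor (SRF). SRF works with MRTF coactivators that enter the nucleus when actin monomer is used up by filament growth, and TGF-beta signalling is a second known inducer of the smooth muscle set. Outside muscle, the same genes are read as markers of pericytes, myofibroblasts and cells with strong stress fibres.

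CArG boxes were looked for in the 250 bases before the RefSeq start (GRCm38.p6) of the 7 members with a promoter in that table: Acta2, Actc1, Cnn1, Cnn2, Myl9, Tpm1 and Tpm2. A box was read as CC, then 6 bases each A or T, then GG, a pattern that is the same on both strands. Actc1, Cnn2 and Myl9 held one, 3 of 7 promoters, against 1.47% of 32851 promoters. With at most 1 of the 6 middle bases not A or T, a rule added after the sequences were seen, 4 of 7 held one, now with Acta2, against 8.59% of all promoters. The boxes are shown with 10 bases on either side, 5′ to 3′ on the gene's own strand, with the box in capitals, because the members that hold them moved in different directions below.
Acta2, 84 bases before the start, chr19:34255438-34255467, minus strand: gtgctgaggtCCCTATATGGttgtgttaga
Acta2, 34 bases before the start, chr19:34255388-34255417, minus strand: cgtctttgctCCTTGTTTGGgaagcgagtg
Actc1, 175 bases before the start, chr2:114053031-114053060, minus strand: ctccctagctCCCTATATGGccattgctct
Actc1, 138 bases before the start, chr2:114052994-114053023, minus strand: ccctccccttCCTTACATGGtctgggagcc
Actc1, 87 bases before the start, chr2:114052943-114052972, minus strand: gcccttggctCCAAGAATGGcctcagcggt
Actc1, 47 bases before the start, chr2:114052903-114052932, minus strand: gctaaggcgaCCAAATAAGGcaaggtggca
Cnn2, 56 bases before the start, chr10:79988534-79988563, plus strand: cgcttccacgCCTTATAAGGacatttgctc
Myl9, 161 bases before the start, chr2:156775293-156775322, plus strand: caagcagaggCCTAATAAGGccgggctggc
Myl9, 99 bases before the start, chr2:156775355-156775384, plus strand: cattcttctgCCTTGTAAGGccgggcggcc
The distance is from the box's first base to the start. The upstream box of Acta2 and the farthest box of Actc1 are the same 10 letters. GENCODE, whose Acta2 and Actc1 gene models begin farther upstream than these RefSeq starts, places the Acta2 boxes in an exon and the Actc1 boxes in an intron of the gene; those of Cnn2 and Myl9 lie outside it. CATTCC, the letters read by TEAD factors, occurred on either strand in the promoters of Tpm1 and Acta2 (12.6% of all promoters), CAGACA, letters given for Smad binding, in that of Acta2 (17.1%), and TATAAA in none of the 7 (12.4%). A match of letters is a description of the window and no evidence of binding.

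Levels are CPM, the count divided by the TMM-scaled library size in M counts, and library totals ran from 56.5 to 116.8 M counts (median 86.7 M). Adjusted p-values are from edgeR's quasi-likelihood test over all genes tested, and a difference was called under 0.05. Errors of levels are SDs over the 4 old or 5 young animals, and errors of log2 fold changes are SEs. Divided by the gene length given in the count table, the level in untreated young NSC cultures at 18 h was highest for Acta2 at 30.2 CPM per kb, with Tpm1 next at 21.4. Without that division Tpm1 was the higher, at 139 against 53.7 CPM. The length was 6485 bases for Tpm1 (21 annotated transcripts) and 1781 bases for Acta2 (2). A shorter expressed transcript would raise a level per kb, so the order depends on the length used. Cnn2 (5.74), Tagln (5.53), Myl9 (4.66) and Tgfb1i1 (2.93 CPM per kb) formed a middle tier, and Tpm2 (0.674), Actc1 (0.246), Cnn1 (0.0783) and Actg2 (0.0344 CPM per kb) were low. After 48 h of differentiation the order in untreated young cells was another: Tpm1 led at 9.61, Myl9 followed at 5.6, and Acta2 was at 1.15 CPM per kb.

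**Figure D1:**
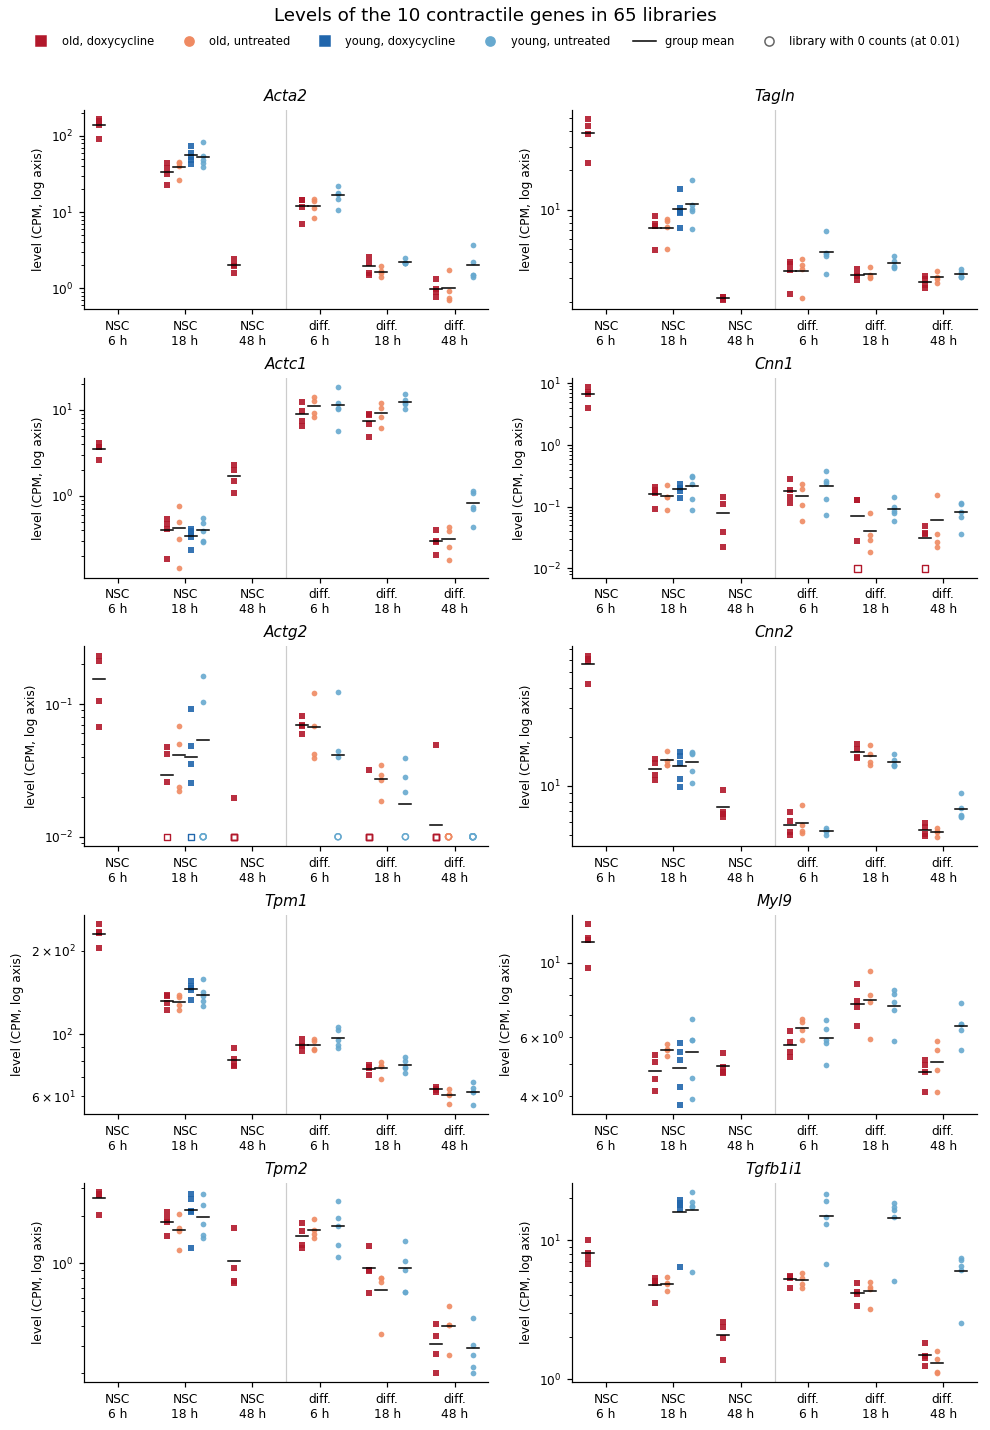
Level of each of the 10 genes (CPM, log axis) in every library, by medium and time (NSC medium, then differentiation), with old cells left of young and doxycycline left of untreated; black bars are group means (not drawn under 0.01 CPM) and open symbols mark libraries with 0 counts. Acta2, Tagln, Cnn1, Cnn2 and Tpm1 were highest at 6 h in NSC medium, Actc1 was highest at 6 and 18 h of differentiation, and Tgfb1i1 separates old from most young libraries.

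The cultures carried neural markers throughout, while 6 of 10 markers of vessel-wall cells, in which these genes are usually expressed, stayed near 0. The 8 neural stem cell and astrocyte markers summed to at least 2980 CPM in each library, with Sox2 between 216 and 382 CPM. At 6, 18 and 48 h in old doxycycline NSC cultures this sum was 2980 to 3110, 3950 to 4120 and 4060 to 4190 CPM. The 6 oligodendrocyte lineage markers summed to 1160 to 1340, 2420 to 2720 and 2450 to 2540 CPM at these times. Of 10 pericyte and vascular smooth muscle markers, 6 (Rgs5, Kcnj8, Abcc9, Anpep, Vtn and Higd1b) stayed under 1 CPM in every library, and their sum was at most 0.9 CPM. At 6, 18 and 48 h in old doxycycline NSC cultures it was 0.661 to 0.803, 0.402 to 0.608 and 0.416 to 0.487 CPM. Smooth muscle myosin Myh11 lay between 0.104 and 1.07 CPM, and Myocd, the smooth muscle coactivator of SRF, averaged at most 0.0249 CPM in any group. Pdgfrb averaged at most 0.177 CPM up to 18 h of differentiation and 3.18 to 4.77 CPM at 48 h. The whole list summed to 121 to 161, 106 to 135 and 125 to 142 CPM at 6, 18 and 48 h in old doxycycline NSC cultures, and to 231 to 274 CPM after 6 h of differentiation in untreated old cells. Most of it was Cspg4 (56.5 to 305 CPM), which oligodendrocyte progenitors also express, and Mcam lay between 3.91 and 42.6 CPM (median 19.3). Of 8 fibroblast markers, 5 stayed under 1 CPM in every library, with Dcn and Lum at 0 in 40 and 48 of the 65. Fbln1 lay between 4.88 and 47.3 CPM, Pdgfra, which oligodendrocyte progenitors also express, was at 2.08 CPM or more in every library (median 22.7), and Col1a1 reached 4.8 CPM. The fibroblast list summed to 111 to 134 CPM at 18 h of differentiation in untreated old cells, against 26.5 to 37.2 CPM in NSC medium. Its 5 markers under 1 CPM moved the other way, summing to 0.104 to 0.158 CPM, against 0.899 to 1.12 CPM in NSC medium. The whole fibroblast list summed to 27 to 34.2, 25.9 to 34.6 and 51.6 to 66.6 CPM at 6, 18 and 48 h in old doxycycline NSC cultures. Its 5 markers under 1 CPM summed to 0.938 to 1.46, 0.82 to 0.973 and 0.662 to 1.09 CPM at these times. Of 7 endothelial markers, 3 stayed under 1 CPM in every library, Cldn5 was at 0 in 34, Flt1 lay between 0.289 and 20.6 CPM and Kdr between 1.08 and 10.2 CPM, and the list summed to 4.37 to 24.9 CPM. A share of such cells and their part in the results were not tested, and in bulk RNA fewer cells of a type and less RNA per cell cannot be told apart.

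Acta2 (ENSMUSG00000035783, chr19:34241090-34255590, minus strand) had the widest range of the abundant members, with group means from 139 CPM down to 0.994 CPM. In old doxycycline-treated cells in NSC medium its 4 libraries lay at 167, 90.3, 140 and 157 CPM at 6 h, at 43.9, 22.4, 31.9 and 38.0 CPM at 18 h, and at 1.96, 2.05, 1.6 and 2.44 CPM at 48 h. The groups did not overlap at any step. At 18 h against 6 h it was lower by a log2 fold change of -2.01 ± 0.27 (SE, adjusted p = 0.000535), and at 48 h against 18 h by -4.06 ± 0.24 (adjusted p = 5.57e-06), a 16.7-fold difference. All 3 times were in NSC medium, which was made with EGF and bFGF, and what lowered Acta2 was not tested.

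Acta2 was lower in differentiation as well. In untreated old cells it lay at 14.1, 8.29, 11.5 and 15 CPM after 6 h of differentiation, against 44.6, 26.4, 40.7 and 45.0 CPM in NSC medium at 18 h. In untreated young cells the values were 17.9, 15, 17.1, 10.7 and 22.1 CPM after 6 h, against 53.8, 44.6, 48.2, 38.8 and 83.2 CPM in NSC medium. All differentiated libraries lay below all NSC libraries of the same age (log2 fold change -1.66 ± 0.24, adjusted p = 0.00037 in old cells, and -1.67 ± 0.24, adjusted p = 0.000119 in young cells). Medium and labelled time change together in this comparison. After 18 h the log2 fold change against NSC medium was -4.51 ± 0.20 in old and -4.55 ± 0.22 in young cells, which is 22.8-fold and 23.4-fold (adjusted p = 2.52e-08 and 8.7e-09). The interaction of age and medium for Acta2 was 0.05 ± 0.31 (adjusted p = 0.965). In doxycycline-treated old cells at 48 h, Acta2 stood at 0.994 ± 0.230 CPM in differentiation, against 2.01 ± 0.347 CPM in NSC medium (mean ± SD, 4 libraries each). This difference of -0.98 ± 0.19 passed the test (adjusted p = 0.000394).

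Between 18 and 48 h of differentiation Acta2 changed little further. Untreated old cells had 0.916, 0.699, 0.738 and 1.72 CPM at 48 h, against 1.94, 1.43, 1.61 and 1.67 CPM at 18 h (-0.72 ± 0.26, adjusted p = 0.0306), with replicate 4 inside the range of the earlier group. That call was lost without replicate 1, 2 or 3 (adjusted p = 0.156, 0.0893 and 0.127). Fits without 1 animal did not pair the animals, here and below. With animals as blocks and none left out, the difference was called (-0.76, adjusted p = 0.00518). Untreated young cells had 2.2, 1.4, 1.49, 3.68 and 1.5 CPM at 48 h, against 2.53, 2.13, 2.18, 2.12 and 2.12 CPM at 18 h. The difference did not pass (-0.13 ± 0.24, adjusted p = 0.679), but did without replicate 4, the highest library at 48 h (-0.46, adjusted p = 0.0238). With animals as blocks it was not called (-0.20, adjusted p = 0.434).

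Actc1 (ENSMUSG00000068614, chr2:114047282-114053548, minus strand) moved the other way and only for a time. In untreated old cells it had 8.20, 12.5, 9.10 and 14.2 CPM after 6 h of differentiation, against 0.142, 0.762, 0.310 and 0.489 CPM in NSC medium at 18 h, a 26.4-fold rise (log2 fold change 4.73 ± 0.39, adjusted p = 6.51e-06). Untreated young cells had 10.5, 12, 5.7, 18.3 and 10.1 CPM after 6 h, against 0.544, 0.298, 0.475, 0.288 and 0.387 CPM in NSC medium, a 28.8-fold rise (4.85 ± 0.33, adjusted p = 1.13e-07). No library of one medium reached the range of the other. At 18 h of differentiation the means were 9.19 ± 2.53 CPM in untreated old cells and 12.4 ± 1.87 CPM in untreated young cells. The 18 h level did not differ from the 6 h level beyond its error in old (-0.25 ± 0.25, adjusted p = 0.405) or young cells (0.14 ± 0.26, adjusted p = 0.657). With animals as blocks the old difference was called (-0.26, adjusted p = 0.00744).

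At 48 h Actc1 was low again. Old untreated cells had 0.430, 0.255, 0.386 and 0.180 CPM, 29.3-fold below 18 h (log2 fold change -4.87 ± 0.29, adjusted p = 5.59e-07). Young untreated cells had 0.701, 0.742, 1.14, 0.437 and 1.07 CPM, 15.5-fold below 18 h (-3.95 ± 0.21, adjusted p = 4.04e-08). NSC medium showed another course in old doxycycline-treated cells: 3.69, 2.59, 3.67 and 4.15 CPM at 6 h, 0.181, 0.536, 0.404 and 0.465 CPM at 18 h, and 1.07, 2.3, 1.5 and 1.98 CPM at 48 h. The level was lowest in the middle, with no overlap between the 3 times (18 h against 6 h: -3.12 ± 0.26, adjusted p = 3.5e-06; 48 h against 18 h: 2.11 ± 0.31, adjusted p = 0.000203). Over the 15 group means, the Pearson correlation of log2(CPM + 1) between Acta2 and Actc1 was -0.17, against 0.96 between Acta2 and Tpm1.

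Actg2 (ENSMUSG00000059430, chr6:83512905-83536265, minus strand) had 0 to 20 counts and was at 0 in 27 of the 65 libraries. With independent counts a 0 allows up to 3 counts, which correspond to 0.0257 to 0.0531 CPM over the libraries. That limit would be higher if both mates of a pair were counted. Actg2 never passed the filter on low counts, so the filtered edgeR fits made no test. Old doxycycline-treated cells in NSC medium had 2, 0, 4 and 4 counts at 18 h, against 15, 10, 6 and 20 counts at 6 h. That difference was called lower when the filter was left out (-2.32 ± 0.72, adjusted p = 0.0146 by edgeR, and -2.39 ± 0.80, adjusted p = 0.00631 by DESeq2). Unfiltered edgeR also called untreated old cells lower at 48 h of differentiation, with 0 counts in each library, against 2 in each at 18 h (adjusted p = 0.0434). Each count of 2 may be both mates of a pair. The highest library elsewhere, with 17 counts, was untreated young replicate 5 in NSC medium at 18 h. The old and young untreated libraries at 48 h of differentiation all held 0. The actin genes are close in sequence, and reads that could come from several of them cannot be told apart here.

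Tpm1 (ENSMUSG00000032366, chr9:67022590-67049406, minus strand) was the most abundant member in CPM and fell at every step, in small amounts. Its means in old doxycycline-treated NSC cultures were 230 ± 18.5, 132 ± 7.77 and 81.1 ± 5.63 CPM at 6, 18 and 48 h (18 h against 6 h: -0.78 ± 0.06, adjusted p = 3.16e-06; 48 h against 18 h: -0.69 ± 0.05, adjusted p = 2.06e-06). In untreated old cells the series from NSC medium at 18 h through 6, 18 and 48 h of differentiation was 131 ± 7.73, 91.9 ± 4.14, 75.7 ± 4.60 and 60.3 ± 2.96 CPM, and in untreated young cells 139 ± 12.4, 97.1 ± 7.19, 77.7 ± 3.83 and 62.3 ± 4.27 CPM. Each of these steps passed the test in both ages, with the largest adjusted p at 0.000125.

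Tpm2 (ENSMUSG00000028464, chr4:43514711-43523765, minus strand), the tropomyosin typical of slow and smooth muscle, was far lower and fell later. After 6 h of differentiation it had 1.62 ± 0.198 CPM in untreated old cells, against 1.64 ± 0.345 CPM in NSC medium (adjusted p = 0.957), and 1.71 ± 0.553 against 1.96 ± 0.560 CPM in untreated young cells (adjusted p = 0.529). After 18 h it had 0.680 ± 0.219 CPM in untreated old cells and 0.927 ± 0.301 CPM in untreated young cells, below NSC medium in both (-1.21 ± 0.25, adjusted p = 0.000507, and -1.04 ± 0.23, adjusted p = 0.000852). The further fall at 48 h was -0.78 ± 0.30 in old cells (adjusted p = 0.0385) and -1.70 ± 0.28 in young cells (adjusted p = 0.000129). The call in old cells was lost without replicate 1, 3 or 4 (adjusted p = 0.0579, 0.183 and 0.139). With animals as blocks Tpm2 was called lower there (-0.76, adjusted p = 0.0315). Its 2 steps in old doxycycline NSC cultures (-0.48 ± 0.15 at 18 h, adjusted p = 0.0167; -0.81 ± 0.25 at 48 h, adjusted p = 0.0168) were each lost without replicate 1 (adjusted p = 0.0608 and 0.0902) or replicate 3 (0.0767 and 0.0859).

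Tagln (ENSMUSG00000032085, chr9:45929619-45936058, minus strand) encodes transgelin, an actin-bundling protein and an early smooth muscle marker. In old doxycycline-treated NSC cultures it had 49.2, 22.6, 37.6 and 43.2 CPM at 6 h, 8.98, 4.97, 7.74 and 7.55 CPM at 18 h, and 2.05, 2.16, 2.09 and 2.18 CPM at 48 h. It fell without overlap at both steps (-2.37 ± 0.28, adjusted p = 0.000155; -1.77 ± 0.16, adjusted p = 6.03e-06). Differentiated libraries at 6 h stood below NSC libraries at 18 h in both ages, at 3.43 ± 0.907 against 7.27 ± 1.55 CPM in untreated old and 4.79 ± 1.34 against 11 ± 3.65 CPM in untreated young cells (-1.05 ± 0.22, adjusted p = 0.00206; -1.17 ± 0.24, adjusted p = 0.000919).

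After that Tagln was nearly level. The 18 h against 6 h difference did not pass in old (-0.09 ± 0.17, adjusted p = 0.655) or young cells (-0.29 ± 0.16, adjusted p = 0.119), although in young cells it was called with animals as blocks (-0.26, adjusted p = 0.0492) or without replicate 4 (-0.38, adjusted p = 0.0324). At 48 h against 18 h it was -0.09 ± 0.11 in old cells (adjusted p = 0.511). In young cells it was -0.29 ± 0.09 (adjusted p = 0.0117, 0.0104 with animals as blocks, and 0.0597 without replicate 5). In doxycycline-treated old cells at 48 h Tagln was the 1 member higher in differentiation, at 2.84 ± 0.281 CPM against 2.12 ± 0.0615 CPM in NSC medium (0.46 ± 0.11, adjusted p = 0.00206). The antisense gene Gm48529 lies inside Tagln and had nearly the same level in each group (37.2 CPM at 6 h in NSC medium against 38.1 CPM for Tagln). The strand setting of the counting is not given in the sources used here, so reads of the 2 genes cannot be told apart.

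The calponins differed from each other. Cnn1 (ENSMUSG00000001349, chr9:22099216-22109630, plus strand), the smooth muscle form, was above 1 CPM in a single group, with 8.68, 3.97, 6.86 and 7.20 CPM in old doxycycline-treated cells at 6 h in NSC medium, against 0.207, 0.0912, 0.190 and 0.169 CPM at 18 h. This 40.1-fold fall (-5.33 ± 0.32, adjusted p = 7.76e-07) was the largest of any member at that step. In the other 14 groups no library passed 0.387 CPM or 35 counts. In untreated young cells it was called lower at 18 h of differentiation, at 0.093 ± 0.0307 CPM, against 0.214 ± 0.0991 CPM in NSC medium (-1.14 ± 0.40, adjusted p = 0.015), but not without replicate 3 or 4 (adjusted p = 0.0835 and 0.0593). The 18 h against 6 h call (-1.25 ± 0.43, adjusted p = 0.0182) was likewise lost without replicate 2, 3 or 5 (adjusted p = 0.063, 0.0696 and 0.0838). With animals as blocks both differences were called (-1.09 and -1.13, adjusted p = 0.0238 and 0.0327).

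Cnn2 (ENSMUSG00000004665, chr10:79988584-79996062, plus strand), the calponin of non-muscle cells, dipped and returned. It lay at 58.4, 42.4, 60.1 and 63.5 CPM in old doxycycline-treated cells at 6 h in NSC medium and at 13.9, 11.6, 10.9 and 14.6 CPM at 18 h (18 h against 6 h: -2.12 ± 0.15, adjusted p = 4.23e-06). In untreated old cells the series from NSC medium at 18 h through 6, 18 and 48 h of differentiation was 14.4 ± 1.35, 5.95 ± 1.19, 15.2 ± 1.98 and 5.23 ± 0.257 CPM. In untreated young cells it was 14.1 ± 2.63, 5.29 ± 0.182, 14.1 ± 1.02 and 7.20 ± 1.09 CPM. Neighbouring groups did not overlap, and each of these steps passed the test (largest adjusted p = 4.56e-06). After 6 h Cnn2 differed from NSC medium by -1.25 ± 0.13 in old and -1.38 ± 0.12 in young cells. From 6 to 18 h it rose by 1.36 ± 0.13 in old and 1.41 ± 0.06 in young cells. From 18 to 48 h the change was -1.56 ± 0.08 in old and -0.99 ± 0.09 in young cells. The 18 h level did not differ from NSC medium beyond its error in old (0.13 ± 0.09, adjusted p = 0.21) or young untreated cells (0.05 ± 0.12, adjusted p = 0.693), while in doxycycline-treated old cells it was above it (0.39 ± 0.10, adjusted p = 0.00351).

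Myl9 (ENSMUSG00000067818, chr2:156775420-156781658, plus strand), the regulatory light chain of smooth muscle and non-muscle myosin, had the narrowest range, with group means of 4.73 to 11.6 CPM. It was highest at 6 h in NSC medium in old doxycycline-treated cells (11.7, 9.67, 11.9 and 13.1 CPM) and fell to 5.06, 4.5, 4.13 and 5.29 CPM at 18 h (-1.27 ± 0.11, adjusted p = 3.29e-06). After 18 h of differentiation it was above NSC medium, at 7.76 ± 1.44 against 5.51 ± 0.196 CPM in untreated old cells (0.54 ± 0.12, adjusted p = 0.000755) and 7.42 ± 0.979 against 5.41 ± 1.16 CPM in untreated young cells (0.51 ± 0.14, adjusted p = 0.00476), the young groups overlapping. The call at 6 h in old cells (0.25 ± 0.08, adjusted p = 0.0108) was 0.21 without replicate 1 and 0.20 without replicate 3 (adjusted p = 0.0628 and 0.0838). The 18 h against 6 h call in old cells (0.28 ± 0.11, adjusted p = 0.0461) was lost without replicate 1, 3 or 4, at log2 fold changes of 0.30, 0.30 and 0.16 (adjusted p = 0.101, 0.0994 and 0.266). The young call (0.32 ± 0.10, adjusted p = 0.0136) was lost without replicate 4 or 5, at 0.26 and 0.22 (adjusted p = 0.0689 and 0.0854). With animals as blocks each of these calls was made (0.25, 0.27 and 0.31, adjusted p = 0.0113, 0.0123 and 0.0174). At 48 h against 18 h Myl9 fell in old cells (-0.64 ± 0.14, adjusted p = 0.0019). The young difference was -0.21 ± 0.10 (adjusted p = 0.0912, 0.0565 with animals as blocks, and 0.0268 without replicate 3).

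**Figure D2:**
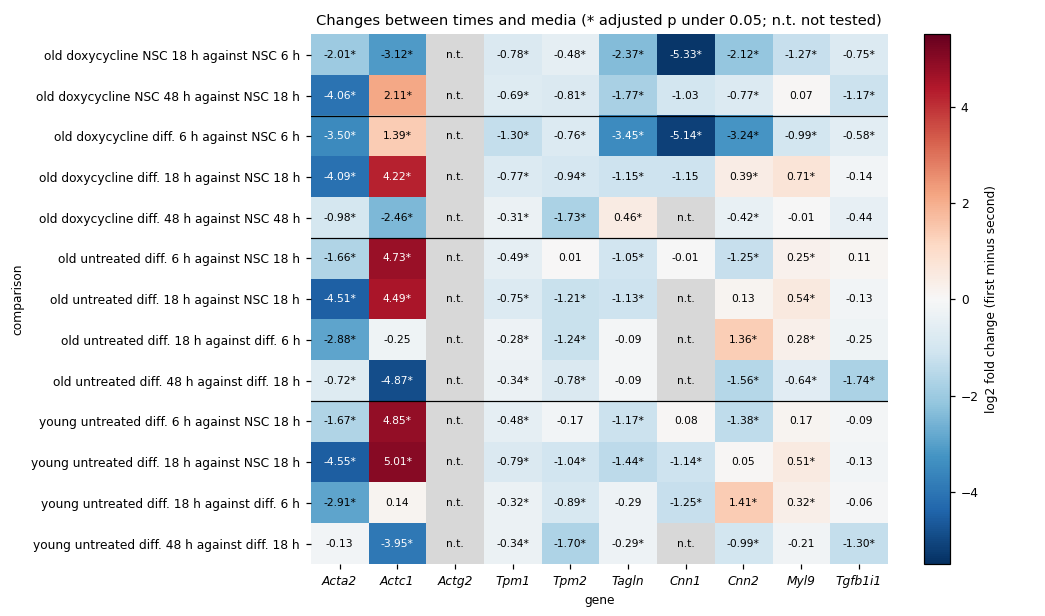
Log2 fold change of each gene (columns) in comparisons of time or medium (rows, first condition minus second), red for higher and blue for lower in the first condition; * marks an adjusted p under 0.05 and n.t. a gene under the filter on counts. Acta2 was lower in each row (-0.13 and not called in young cells at 48 h against 18 h), while Actc1 was higher at 6 and 18 h of differentiation than in NSC medium and lower at 48 h.

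At the step between 6 and 18 h in NSC medium of old doxycycline-treated cells, all 9 tested members were lower at 18 h and 0 were higher, where 30.7% of 16678 genes were called lower and 30.6% higher. The members' median log2 fold change was -2.01, against 0.00 over all genes. At 48 h against 18 h 6 members were lower and 1 was higher of 9 (26.3% lower and 26.0% higher among all genes). Differentiation against NSC medium of the same labelled hour called 8 lower and 1 higher of 9 at 6 h (39.3% and 41.4%). The counts were 4 lower and 3 higher of 9 at 18 h (40.0% and 41.4%), and 5 lower and 1 higher of 8 at 48 h (37.1% and 39.8%).

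In untreated old cells, 6 h of differentiation against NSC medium at 18 h called 4 members lower and 2 higher of 9 (37.4% lower and 38.2% higher among all genes). At 18 h the counts were 4 lower and 2 higher of 8 (40.5% and 41.5%). Differentiation at 18 h against 6 h gave 3 lower and 2 higher of 8 (33.6% and 34.1%), and 48 h against 18 h gave 7 lower and 0 higher of 8 (28.5% and 28.0%). In untreated young cells the counts were 4 lower and 1 higher of 9 at 6 h (36.5% and 38.4%), and 5 lower and 2 higher of 9 at 18 h (40.3% and 42.3%). They were 4 lower and 2 higher of 9 at 18 h against 6 h (32.4% and 34.0%), and 6 lower and 0 higher of 8 at 48 h against 18 h (29.2% and 27.7%). Actg2 is in none of these counts, and Cnn1 is missing where 8 were tested.

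Other genes of the contractile and actin-signalling machinery were counted by list. Among all genes, 30.7% were called lower and 30.6% higher at 18 h against 6 h in NSC medium. At 18 h of differentiation against NSC medium 40.5% were lower and 41.5% higher in untreated old cells, and 40.3% lower and 42.3% higher in young cells. Of 16 other smooth muscle contractile genes, 15 were tested at 18 h against 6 h in NSC medium and 6 were lower and 1 higher, with a median of -0.09: Csrp1 (-0.92), Tagln2 (-0.82) and Tpm4 (-0.79) were lower, and Mylk, the kinase of the myosin light chain, was higher (1.66 ± 0.17, at 40.2 against 12.9 CPM). At 18 h of differentiation against NSC medium, 7 were lower and 5 higher of 14 tested in untreated old cells, led by Tagln2 (10.8 against 258 CPM, -4.53 ± 0.09), Smtn (4.02 against 41.4 CPM, -3.32 ± 0.09) and Mylk (8.71 against 42.9 CPM, -2.26 ± 0.16), while the actin-binding genes Synpo2 (1.96 on the log2 scale) and Csrp1 (1.41) were higher. In young cells 7 were lower and 5 higher of 15, led by the same 3 genes (-4.41, -3.02 and -2.19). Of 20 non-muscle actomyosin and focal adhesion genes, 16 were lower and 1 higher (Ezr) at 18 h in each age, with medians of -0.53 in old and -0.56 in young cells; Msn, Myl12a and Pfn1 led the lower ones. At 18 h against 6 h in NSC medium 9 of these 20 were lower, led by the actin crosslinker Actn1 (34.7 against 130 CPM, -1.89 ± 0.19), and 3 were higher.

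Of 14 SRF and MRTF regulators, 5 were lower and 6 higher at 18 h against 6 h in NSC medium (median 0.00). At 18 h of differentiation 10 were lower and 1 higher in untreated old cells, and 8 lower and 2 higher in young cells. Mrtfb averaged 44.1 against 103 CPM in old cells (-1.17 ± 0.05) and 43.0 against 109 CPM in young cells (-1.30 ± 0.04), and Limk2, a kinase that stabilises actin filaments, was higher in both (1.15 and 1.13). Srf RNA averaged 49.0, 57.1 and 50.1 CPM at 6, 18 and 48 h in old doxycycline NSC cultures, and 27.4 CPM after 6 h of differentiation in untreated old cells. The activity of SRF was not measured, and its part in the levels of the members was not tested. Of 14 YAP and TEAD genes, 7 were lower and 3 higher of 13 tested at 18 h against 6 h in NSC medium, led by the immediate early matrix gene Ccn1 (9.38 against 46.6 CPM, -2.29 ± 0.09). Of 15 TGF-beta ligands, receptors and targets, 8 were lower and 2 higher at that step, led by Ltbp1 (-1.24 ± 0.28), and at 18 h of differentiation 7 of 14 were lower and 4 higher in untreated old cells, led by Ltbp1 (-2.98 ± 0.25) and the receptor Tgfbr2 (-2.67 ± 0.10). The medians of these lists lay between -0.56 and 0.00 at the NSC step, against -2.01 for the members. The members and lists were chosen with earlier results of these data known, so these sentences describe counts and are no test of a list.

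Among 11816 other genes averaging at least 5 CPM, the 5 most like Acta2 over the 15 group means were Col6a2 (Pearson r = 0.989), Capzb (0.985), Glipr2 (0.984), Ahnak2 (0.981) and Aldh1a3 (0.979). Col6a2, a collagen VI chain, averaged 74.8, 21.6 and 0.899 CPM at 6, 18 and 48 h in old doxycycline NSC cultures, and Aldh1a3, a retinoic acid synthesising enzyme, 360, 60.7 and 4.35 CPM. Capzb, the actin capping subunit, kept the order but not the size of the change, at 325, 302 and 242 CPM. These 5 were chosen by their correlation. The members' own correlations with Acta2 were 0.96 for Tpm1, 0.92 for Tpm2, 0.87 for Tagln, 0.77 for Actg2, 0.59 for Tgfb1i1, 0.58 for Cnn1, 0.54 for Cnn2 and 0.15 for Myl9. Groups share animals, and these values are a description.

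Tgfb1i1 was the member called between the ages at the most points (ENSMUSG00000030782, chr7:128246812-128255699, plus strand). It encodes Hic-5, a focal adhesion adaptor that is induced by TGF-beta and also acts as a nuclear coactivator. In untreated NSC cultures at 18 h it had 5.41, 4.31, 4.89 and 4.85 CPM in old cells, against 17.6, 5.85, 18.9, 17.3 and 22.2 CPM in young cells. No old library reached the lowest young one, and young replicate 2 stood near the old group. The log2 fold change was -1.76 ± 0.34 (adjusted p = 0.0216), a 3.39-fold lower level in old cells.

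The age gap of Tgfb1i1 was seen at each time of differentiation. Untreated old cells had 4.80, 4.54, 5.84 and 5.37 CPM at 6 h, against 14.7, 6.75, 13.1, 19.1 and 21.5 CPM in young cells (-1.55 ± 0.31, adjusted p = 0.0537). At 18 h they had 4.63, 3.17, 4.42 and 5.03 CPM, against 5.10 to 18.6 CPM in young cells (-1.72 ± 0.38, adjusted p = 0.0491). At 48 h they had 1.4, 1.12, 1.1 and 1.59 CPM, against 6.11, 2.52, 6.51, 7.41 and 7.19 CPM (-2.18 ± 0.32, adjusted p = 0.00625). Old and young groups did not overlap at any of these points. The NSC, 18 h and 48 h differences passed the test and the 6 h one did not.

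A single young animal stood apart. Young replicate 2 was the lowest in all 5 young groups, at 5.10 to 6.75 CPM up to 18 h of differentiation and 2.52 CPM at 48 h, while the other 4 young animals averaged 16.8 to 19.0 CPM and 6.80 CPM. Without it, old against young differed by -1.97 ± 0.10 in NSC medium (adjusted p = 1.01e-05), -1.74 ± 0.16 at 6 h (0.00181), -1.94 ± 0.12 at 18 h (1.62e-05) and -2.37 ± 0.13 at 48 h of differentiation (2.48e-05). The animal was picked on the values tested here, so smaller errors and adjusted p-values followed from the choice. These fits are no independent test. Leaving out others instead took the call away at NSC 18 h (old replicates 1 to 4 and young replicates 1 and 3, adjusted p = 0.05 to 0.0744) and, at 18 h of differentiation, for each other animal (0.0735 to 0.145). The smallest log2 gap between this animal and the rest over the 5 groups was 0.90 for Tgfb1i1, and of 11790 genes averaging at least 5 CPM in young libraries no other had a gap as large for this animal (next largest 0.40). For any young animal, 2 genes had a gap as large. Of 44 genes averaging at least 5 CPM within 1 Mb of Tgfb1i1, 0 set young replicate 2 apart in all 5 groups. The share over all genes is not given here, and a cause was not tested. Neighbouring Armc5 had 27 to 29.4 CPM in old and 25.9 to 29.5 CPM in young untreated NSC cultures. This animal was female, as were young replicates 3 and 5. With a sex term the NSC difference was -1.77 (adjusted p = 0.0355), and that at 18 h of differentiation was no longer called (-1.75, adjusted p = 0.0574).

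**Figure D3:**
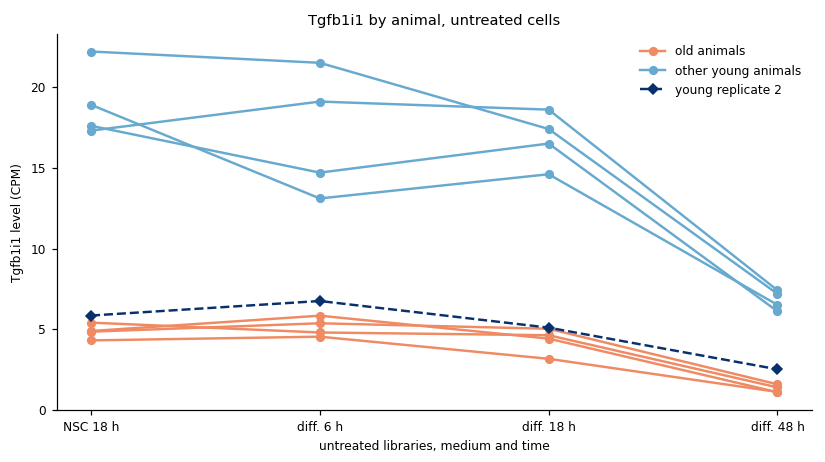
Tgfb1i1 level (CPM) in untreated cells by medium and time, each line 1 animal, with 4 old animals, young replicate 2 (dashed, diamonds) and the other 4 young animals. The old animals lie at 1.1 to 5.84 CPM and young replicate 2 at 2.52 to 6.75 CPM, under the other young animals at each point.

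Tgfb1i1 also fell with time. In old doxycycline NSC cultures it averaged 8.04 ± 1.44, 4.72 ± 0.807 and 2.07 ± 0.528 CPM at 6, 18 and 48 h (-0.75 ± 0.15, adjusted p = 0.00165; -1.17 ± 0.19, adjusted p = 0.000546). Differentiation for 6 or 18 h against NSC medium passed in neither age without doxycycline. At 48 h against 18 h of differentiation it was lower in old cells (-1.74 ± 0.16, adjusted p = 8.51e-07) and in young cells (-1.30 ± 0.39, adjusted p = 0.018). The young call was lost without replicate 1, 3, 4 or 5 (adjusted p = 0.0733, 0.066, 0.0623 and 0.0571), and its adjusted p was 5.71e-09 with animals as blocks. The block also called 2 small differences. In untreated old cells 18 h against 6 h of differentiation gave -0.25 ± 0.13 (adjusted p = 0.102, and 0.0275 with animals as blocks). In doxycycline-treated old cells at 48 h differentiation against NSC medium gave -0.44 ± 0.20 (adjusted p = 0.0599, and 0.0237 with blocks or 0.0128 without replicate 2).

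Over the members, age called 1 of 9 in NSC medium at 18 h, where 5.95% of all genes were called and 2.86% were lower in old cells. It called 0 of 9 at 6 h of differentiation (1.43%, 0.721% lower), 1 of 8 at 18 h (5.19%, 2.34% lower) and 3 of 8 at 48 h (10.6%, 5.02% lower). Each called member was lower in old cells. At 6 h 1 member had an unadjusted p under 0.05, DESeq2 called 1, Tgfb1i1 (3.03% of all genes), and limma called 0 (1.46%). At 48 h Actc1 had 0.313 ± 0.116 CPM in untreated old cells, against 0.817 ± 0.287 CPM in untreated young ones (-1.36 ± 0.33, adjusted p = 0.0232), and Cnn2 had 5.23 ± 0.257 against 7.20 ± 1.09 CPM (-0.45 ± 0.10, adjusted p = 0.02). The Actc1 call was lost without old replicate 2, 3 or 4 (adjusted p = 0.0706, 0.055 and 0.0646) and the Cnn2 call without old replicate 3 (adjusted p = 0.0658), which left 1 of the 3 calls. Acta2 averaged less in old than in young cells at each of the 4 points, 39.2 ± 8.75 against 53.7 ± 17.3 CPM in NSC medium and 1.02 ± 0.479 against 2.05 ± 0.963 CPM at 48 h, and edgeR called none of these (-0.47 ± 0.25, adjusted p = 0.315, and -1.0 ± 0.38, adjusted p = 0.123). The 48 h difference was called with sex as a covariate (-1.04, adjusted p = 0.0267) and by DESeq2 (adjusted p = 0.0202). At 18 h of differentiation its groups did not overlap, at 1.43 to 1.94 CPM in old cells, against 2.12 to 2.53 CPM in young ones (-0.40 ± 0.12, adjusted p = 0.0789, 0.043 without old replicate 1, and 0.0375 by DESeq2).

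No difference of a member with doxycycline passed the test without animals as blocks. Of the 8 or 9 members tested, edgeR called 0 in old NSC cultures at 18 h (0.018% of all genes called), 0 in old cells at 6, 18 and 48 h of differentiation (0.0294%, 0.0118% and 0.0296%) and 0 in young NSC cultures at 18 h (0.0361%). At an unadjusted p under 0.05 there was 1 member in old NSC cultures and 1 in old cells at 6 h of differentiation, and 0 in the other comparisons. DESeq2 called 0 members in the same order of comparisons (0.521%, 0.373%, 0.189%, 0.379% and 0.999% of all genes), and so did limma (0.018%, 0.047%, 0.0235%, 0.0296% and 0.0361%). The largest point estimate was that of Tpm2 in old cells at 18 h of differentiation, at 0.929 ± 0.259 CPM with doxycycline and 0.680 ± 0.219 CPM without (0.44 ± 0.27, adjusted p = 0.793).

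With each animal as its own block, 3 small decreases were called in old cells. Acta2 in NSC medium at 18 h had 43.9, 22.4, 31.9 and 38.0 CPM with doxycycline, against 44.6, 26.4, 40.7 and 45.0 CPM without, lower in 4 of 4 animals (-0.20, adjusted p = 0.00742; 11.2% of all genes were called in this fit). The 2 groups overlapped. Actc1 had 6.53, 9.64, 7.41 and 12.4 CPM with doxycycline, against 8.20, 12.5, 9.10 and 14.2 CPM without, at 6 h of differentiation (-0.30, adjusted p = 0.00796; 3.67%). At 18 h it had 6.82, 8.92, 4.87 and 8.70 CPM with doxycycline, against 8.31, 10.4, 6.13 and 12 CPM without (-0.34, adjusted p = 0.0233; 0.883%), lower in 4 of 4 animals both times. In the blocked fits no member was called in old cells at 48 h (4.15%) or in young NSC cultures (13.6%), where Acta2 was higher in 4 of 5 animals (0.08, adjusted p = 0.252). The difference between the ages in the doxycycline effect on Acta2 was -0.25 ± 0.35 (adjusted p = 0.892; -0.29 and 0.0562 with animals as blocks). Myl9 was lower with doxycycline in 19 of 21 animal pairs over the 5 comparisons, pairs that come from 4 old animals used 4 times each and 5 young ones, and was called in none (-0.21, adjusted p = 0.0866 in old NSC cultures with animals as blocks). It is named as the most one-sided of the 10 members, with Actc1 next, lower in 15 of 21. The share of all genes with so one-sided a count is not given here.

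**Figure D4:**
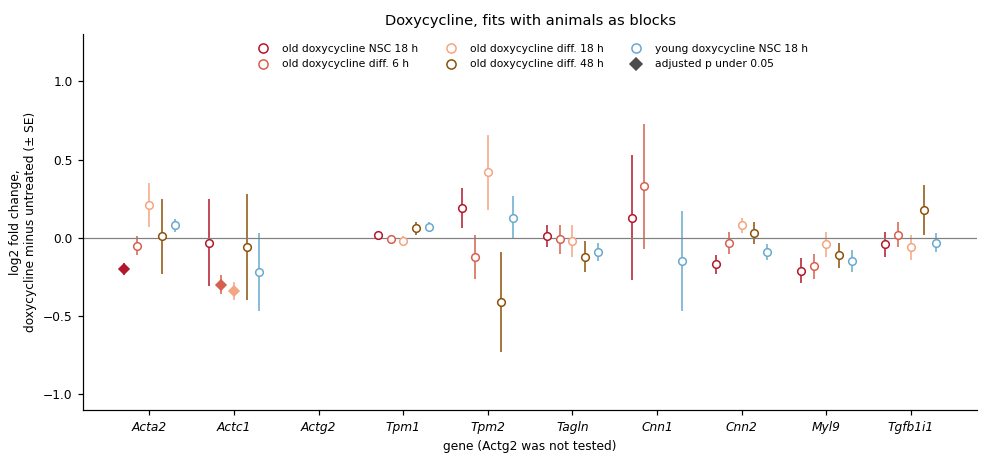
Log2 fold change of each gene with doxycycline minus untreated (± SE), from fits with each animal as a block, in 4 comparisons of old cells and 1 of young cells; filled diamonds mark an adjusted p under 0.05. Acta2 in old NSC cultures and Actc1 at 6 and 18 h of differentiation in old cells are the 3 filled points, between -0.20 and -0.34.

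Of 9 members tested, 0 were called by edgeR for an interaction of age and medium at 18 h (0.818% of all genes), age and doxycycline in NSC medium (0.0% of 17177 genes), or doxycycline and medium in old cells at 18 h (0.00566%). In these 3 fits 0 members had an unadjusted p under 0.05, and DESeq2 called 0 (2.7%, 0.0122% and 0.484% of all genes). The largest estimates were those of Cnn1, at -0.69 ± 0.69 with age and medium and 0.69 ± 0.92 with doxycycline and medium. Actc1 had -0.50 ± 0.44 with age and medium, and Acta2 0.41 ± 0.35 with doxycycline and medium (0.44 ± 0.15, adjusted p = 0.229 with animals as blocks).

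Animals kept their order for part of the set. Old replicate 2 was the lowest of the 4 old animals for Acta2 in 7 of 10 old groups, for Tagln in 8 of 10 and for Tgfb1i1 in 9 of 10. Among the young, replicate 5 was the highest for Tagln in 4 of 5 groups and for Acta2 in 3 of 5, and replicate 4 was the lowest for Tagln in 5 of 5. At 6 h in NSC medium old replicate 2 had 90.3 CPM of Acta2, against 140 to 167 CPM in the other 3 animals, and 3.97 CPM of Cnn1, against 6.86 to 8.68 CPM.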

How the data were processed

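RNA sequencing counts per gene were analysed for 65 libraries in 15 groups. Reads were trimmed with Trim Galore 0.6.6, aligned to mm10 with STAR 2.7.10b and counted with a Subread tool, per the submitters' processing notes, and the authors deposited the resulting raw counts per gene. A second deposited table holds the authors' log2-scale variance-stabilised values (DESeq2 1.40.1, per the submitters' processing notes), used here in 1 alternative. The kit was stranded poly(A), per the labels' protocols. The counting setting for strand is not given in the sources used here. Counts of 2 (75644) outnumbered counts of 1 (19963), so both mates of a pair seem to have been counted, and counting intervals would be too narrow.

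Of 31057 features, 30934 were named from GENCODE M21. Differential expression was tested with edgeR 4.0.16 (R 4.3.3) by its quasi-likelihood test with robust dispersion, after TMM scaling and edgeR's own filter on low counts, set to 10, across all genes, in fits of the 2 groups compared, 22 comparisons and 3 interactions, with Benjamini-Hochberg adjustment over all genes. The code was tested on simulated data. Alternatives were animals as a replicate block, DESeq2 1.42.0 and its size factors, no filter, limma 3.58.1, sex as a covariate, all groups in 1 fit, and leaving out each animal.

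A replicate number is 1 animal within an age, per the labels, so the numbers pair the samples within an age. Same-animal deviations from the group mean correlated at 0.23 or more in each of 18 comparisons (medians 0.49 to 0.78, 11822 genes). For different animals the medians were at most -0.18, and the highest pair of a comparison lay between 0.229 and 0.583. Centring on the mean of 4 or 5 animals by itself pulls correlations of different animals below 0. Animals are separate, and an age is confounded with its set of animals. The members, gene lists and tests were chosen with earlier results of these data known. Members are all named. Other genes named are the 3 called with the largest change per list and direction at 5 CPM or more, or the 5 most like Acta2. Srf was named outside this rule, after its values were seen. Armc5 and the tested motifs were chosen by position and by known factor. Promoters are from RefSeq, GRCm38.p6.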

Additional observations from a re-analysis of the deposited data

Results flagged for a closer look

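In 8 of 135 combinations of gene and group, 1 library stood apart from the rest of its group by Dixon's criterion, which chance gives in about 1 in 20. Tgfb1i1 accounted for 3 of them, all at replicate 2. Young replicate 2 had 6.41 CPM with doxycycline in NSC medium at 18 h and 2.52 CPM untreated at 48 h of differentiation, below the other 4 young animals. Old replicate 2, another animal, had 4.56 CPM with doxycycline at 6 h of differentiation. Tpm2 was low in old replicate 2, at 2.03 CPM with doxycycline at 6 h in NSC medium and 0.353 CPM untreated at 18 h of differentiation. Acta2 was high in untreated young replicate 1 at 18 h of differentiation, at 2.53 CPM. Cnn1 was high in untreated old replicate 1 at 48 h of differentiation, at 0.158 CPM. Cnn2 was high in doxycycline-treated old replicate 4 at 48 h in NSC medium, at 9.51 CPM. The cause was not tested.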

How the results depend on the processing

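Of 91 called differences of members, 76 were called under each of their 9 to 14 alternatives, 15 were lost under at least 1 and 0 reversed. For the counts of called members, 235 alternatives stayed within 1.5 times the count reported and 24 did not. DESeq2 called 1 member instead of 0 for age at 6 h of differentiation (3.03% of all genes). Its counts were 2 instead of 1 at 18 h and 5 instead of 3 at 48 h. Over all genes at 18 h it called 780 higher and 804 lower of 23330, against 483 and 397 of 16943 by edgeR. At 48 h the numbers were 1386 and 1349 of 23453, against 960 and 855 of 17043. At 18 h, sex as a covariate, no filter and limma each called 0 members. Over all genes these fits called 414 higher and 341 lower of 16943, 490 and 459 of 23330, and 428 and 478 of 16943. With the replicate block, which follows the animals, 1 member instead of 0 was called with doxycycline in old NSC cultures at 18 h and in old cells at 6 and at 18 h of differentiation. These blocked fits called 11.2%, 3.67% and 0.883% of all genes. Leaving out 1 animal gave 0 to 1 members for age in NSC medium, 0 to 1 at 6 h, 0 to 1 at 18 h and 1 to 4 at 48 h of differentiation. The lone 1 at 6 h came without young replicate 2, and the 1 at 48 h without old replicate 3. The shares of all genes in the fits without 1 animal are not given here. Levels under 0.0531 CPM, the highest value of 3 counts in a library, (Actg2, and Cnn1 late in differentiation) rest on a few counts.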
